A study of Mus musculus with 28 samples.

Results

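RNA-seq of mouse embryoid bodies (EBs) was examined for 10 genes of the endothelial lineage, the cells that line blood vessels. The genes, chosen by name with earlier results of these data known, were Etv2, Kdr, Flt1, Tie1, Tek, Eng, Sox17, Cdh5, Pecam1 and Emcn. All 10 were among the 19421 genes of the deposited table and passed the filter that left 16837 genes (10 or more normalized counts in 2 or more libraries). The 28 libraries came from 7 doxycycline-inducible lines of mouse embryonic stem cells, all derived from the A2loxCre parental line, which carry Atoh1 (iAtoh1), Gfi1 (iGfi1), Pou4f3 (iPou4f3), Gfi1 with Atoh1 (iG+A), Gfi1 with Pou4f3 (iG+P), Pou4f3 with Atoh1 (iP+A) or all 3 factors (iGPA). Each cassette joins its factors by 2A peptides and ends with the fluorescent protein mVenus, so that every library, Dox or No Dox, came from cells with a transgene. EBs of each line were either treated with doxycycline (Dox, 2 µg/ml) for 48 h from day 4 and sorted for Venus+ cells at day 6, or left untreated (No Dox) and taken whole, without sorting, at day 6. Each of the 14 groups has 2 libraries, each from another clone of that line according to the series record.

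Endothelial cells arise from mesoderm that carries Kdr, the main receptor for vascular endothelial growth factor. Etv2, an ETS transcription factor, is switched on for a short time in this mesoderm and is required for endothelial and blood cells to form, and the ETS factors that follow it keep the endothelial genes on. Vessels then mature under Tie receptors and their angiopoietin ligands, under endoglin and under cell contacts made of VE-cadherin and PECAM-1, while SOX17 is best known in arterial endothelium and in endoderm. Atoh1, Gfi1 and Pou4f3 act in inner ear hair cells, and Gfi1 also acts in the blood lineage.

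The endothelial genes were expressed in untreated EBs of all 7 lines, so the comparisons below concern genes that were already on. In normalized counts per kilobase of transcript (the longest NCBIM37 transcript of each gene), averaged over the 14 No Dox libraries, Tek (1174), Kdr (1111) and Pecam1 (907) had the highest levels. Eng (432), Cdh5 (409) and Tie1 (359) came next, and Flt1 (186), Etv2 (142) and Sox17 (107) were lower. Emcn, which codes for the sialomucin endomucin, was the lowest at 35.3. Many neighbours in this order did not differ beyond their spread, since the single libraries of Tek ran from 414 to 1911, those of Kdr from 786 to 1360 and those of Pecam1 from 717 to 1133.

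The untreated lines were not alike in 2 of the 10 genes, against 12.1% of all genes tested (limma F test over the 7 No Dox groups, adjusted p under 0.05). These were Cdh5 (adjusted p = 0.0228), whose mean was lowest in iP+A (901 normalized counts) and highest in iG+A (2594), and Emcn (adjusted p = 0.0417), which ran from 26.7 in iG+P to 203 in iG+A. Tie1 (adjusted p = 0.0515) had the same lowest and highest lines as Cdh5. Pecam1 (adjusted p = 0.886) was the most even, with 14 untreated libraries between 2469 and 3900 normalized counts. Neither gene passed without the first No Dox replicate of iG+A, iG+P or iP+A, and Emcn also failed in 6 other such fits. Each Dox effect below was therefore taken against the line's own No Dox libraries.

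**Figure D1:**
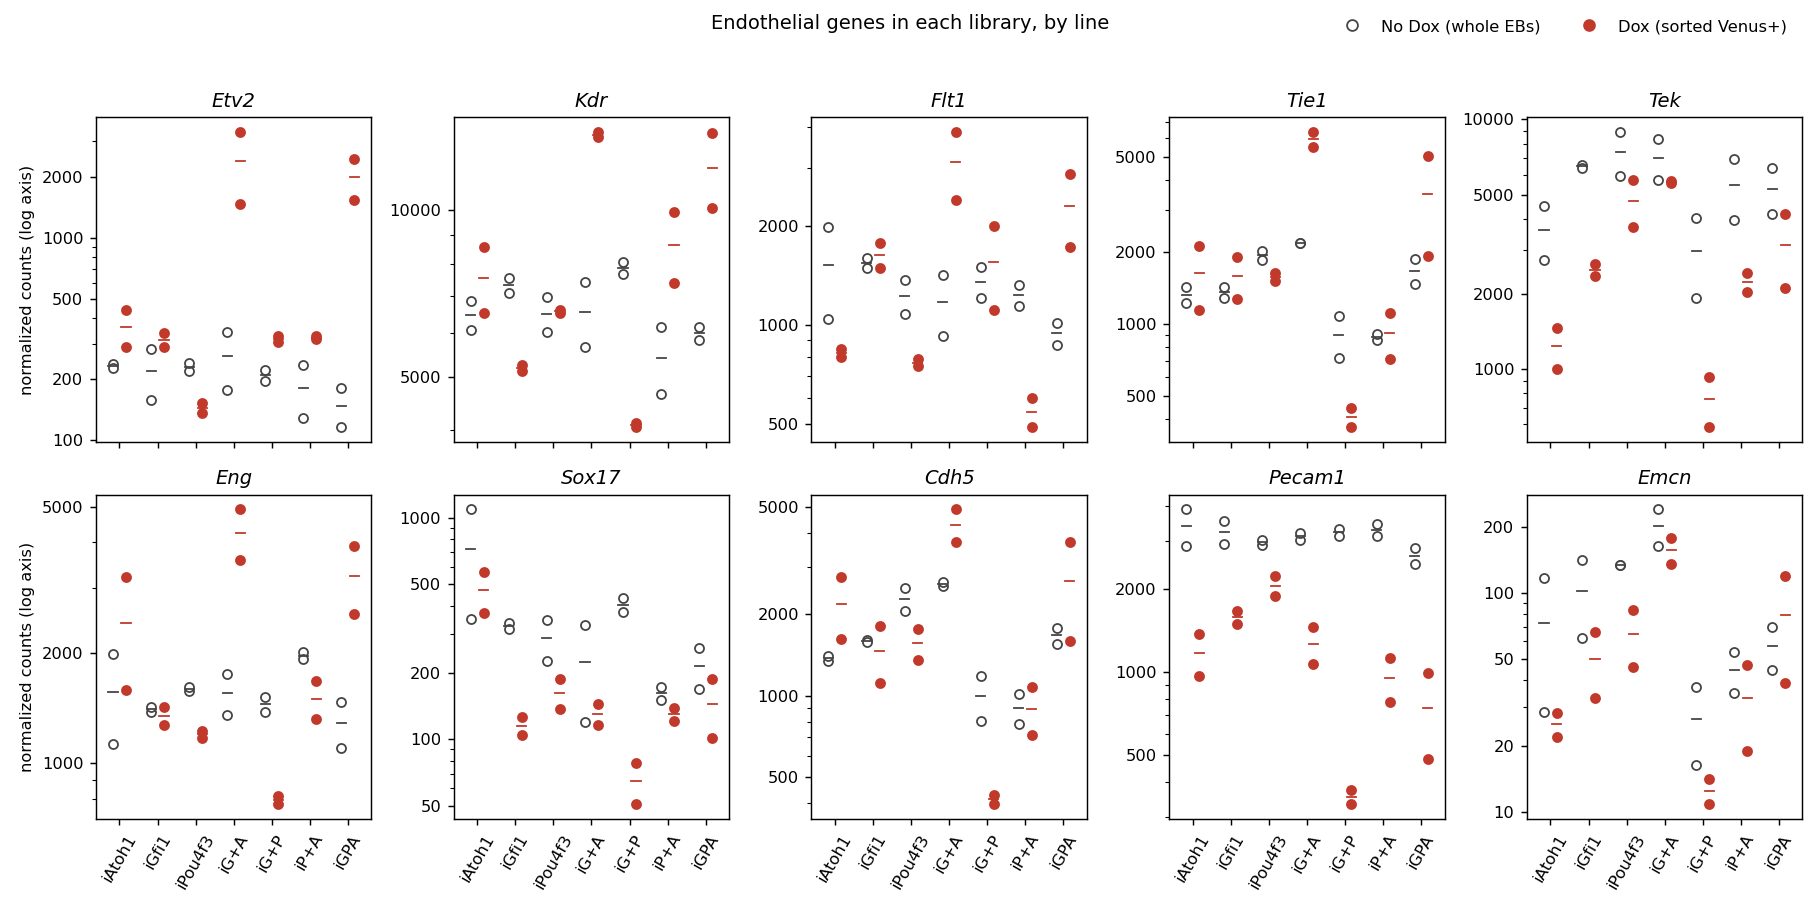
Normalized counts (log axes) of the 10 endothelial genes by line. Open points are the 2 No Dox libraries (whole EBs), filled points the 2 Dox libraries (sorted Venus+ cells) and short bars the group means. Etv2 stands above its controls by the widest margin in iG+A and iGPA, and Pecam1 and Tek lie below their controls in all 7 lines.

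Dox libraries are sorted cells and No Dox libraries are whole EBs, so within a line the factors and the sort cannot be told apart. In such bulk samples, fewer endothelial cells and less RNA per endothelial cell cannot be told apart either. A gene is said to have risen or fallen in a line when limma gave an adjusted p under 0.05 and the log2 fold change was 1.5 or more either way. Fold changes refer to log2(normalized count + 1), with 2 libraries per group in every comparison.

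Etv2 rose in the 2 lines that carry both Gfi1 and Atoh1. In iG+A the No Dox libraries held 178 and 341 normalized counts and the Dox libraries 1464 and 3322. In iGPA the No Dox libraries held 180 and 116 and the Dox libraries 1542 and 2457. All 4 Dox libraries lay above every one of the other 24 libraries, which reached 438 at most. How many of all genes had this order was not counted. The Etv2 log2 fold change was 3.16 (SE 0.39, limma adjusted p = 4.24e-06) in iG+A, an 8.93-fold difference. In iGPA it was 3.74 (SE 0.39, limma adjusted p = 3.75e-07), a 13.4-fold difference. The iG+A value was 2.57 without the second Dox replicate of iG+A and 3.75 without the first. In iAtoh1, iGfi1, iG+P and iP+A both Dox libraries were also above both controls, but the log2 differences were 0.61, 0.56, 0.60 and 0.88, with no adjusted p under 0.05. In iPou4f3 the Dox libraries (136 and 153) lay below the controls (219 and 240), a difference of -0.67 that did not pass either (adjusted p = 0.386).

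Etv2 was the 1 gene of the 10 past the threshold upwards in iG+A, against 7.35% of all genes there, and none fell, against 4.95%. In iGPA, Etv2 rose, against 8.65% of all genes upwards, and Pecam1 fell, against 5.31% downwards. At an adjusted p under 0.05 with no fold threshold the same 6 genes differed in both lines, with Etv2, Kdr, Flt1, Eng and Tie1 higher and Pecam1 lower, against 41.3% of all genes in iG+A and 46.0% in iGPA. The count of 6 of 10 is thus not far above the share of all genes. The median log2 fold change of the 10 genes was 0.89 in iG+A and 0.73 in iGPA, beside -0.01 and 0.01 over all genes tested. Both Dox libraries lay above both controls for 6 of the 10 in iG+A and 5 in iGPA, where 32.6% and 37.7% of all genes did so.

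The other genes with higher levels in both lines were receptors. Kdr was at 5659 and 7430 normalized counts in the iG+A controls and at 13547 and 13834 with Dox, a log2 fold change of 1.08 (SE 0.17, limma adjusted p = 5.96e-05). In iGPA it was at 6144 and 5837 without and at 10071 and 13764 with Dox, a change of 0.98 (SE 0.17, adjusted p = 0.000117). Groups did not overlap in either line, and the lower of the iG+A Dox libraries held 13547 where the highest untreated library of any line held 8055.

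Flt1, a second VEGF receptor that binds its ligand tightly and signals weakly, was at 926 and 1420 in the iG+A controls against 2395 and 3865 with Dox (log2 fold change 1.41, SE 0.32, limma adjusted p = 0.00166). In iGPA its values were 1016 and 872 against 1723 and 2887 (1.24, adjusted p = 0.00351). Eng, the TGF-beta co-receptor endoglin, was at 1352 and 1756 against 3584 and 4923 in iG+A (1.45, SE 0.28, adjusted p = 0.000527) and at 1470 and 1099 against 2556 and 3918 in iGPA (1.32, adjusted p = 0.000923). Every Dox library of these genes was above both of its controls.

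Tie1, an orphan receptor that modulates Tek signalling, was at 2183 and 2187 in the iG+A controls against 5531 and 6358 with Dox (log2 fold change 1.44, SE 0.34, limma adjusted p = 0.00275). In iGPA its controls were at 1476 and 1868 and the Dox libraries at 1926 and 5076 (0.91, adjusted p = 0.0377). The first iGPA Dox library was thus close to the controls and the second well above them, and without the second the Tie1 value was 0.21. Cdh5, the VE-cadherin gene, had the same split in iGPA, with 1595 and 3709 against controls of 1557 and 1778, and its difference passed neither there (0.55, adjusted p = 0.187) nor in iG+A (0.71, adjusted p = 0.0925).

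The first Dox library of each of these 2 lines bears on the number of genes past the threshold. Without the first Dox replicate of iG+A, or without that of iGPA, 4 genes passed upwards or downwards in place of 1 and 2, namely Tie1, Eng, Flt1 and Etv2, all of them higher. Pecam1 then no longer passed in iGPA (log2 fold change -1.41, limma adjusted p = 0.000196), and a lone Dox library is assumed in such a fit to vary as the other groups do. Without the second No Dox replicate of iG+A, Eng, Flt1 and Etv2 passed, and without its second Dox replicate Etv2 and Pecam1.

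Pecam1 codes for the adhesion molecule CD31, which is also present on blood cells and on pluripotent stem cells. All 14 Dox libraries lay below all 14 No Dox libraries, with 332 to 2226 normalized counts against 2469 to 3900. How many of all genes separate in this way was not counted. Within a line, both Dox libraries lay below both controls for 26.3% (iPou4f3) to 36.4% (iGPA) of all genes. Pecam1 fell in iAtoh1 (log2 fold change -1.54, SE 0.25, limma adjusted p = 0.000296), iP+A (-1.80), iGPA (-1.93) and iG+P (-3.18, adjusted p = 3.46e-08). In iG+P the 2 Dox libraries held 332 and 375 normalized counts against 3319 and 3116, a level 9.08-fold lower. The difference in iG+A (-1.31) and iGfi1 (-1.02) had an adjusted p under 0.05 without the fold threshold, and in iPou4f3 it was -0.53 (adjusted p = 0.280).

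Tek, the angiopoietin receptor TIE2, also had both Dox libraries below both controls in all 7 lines. In iGPA, though, the higher Dox library (4187) all but met the lower control (4190) in normalized counts. The share of all genes with this order in all 7 lines was not counted. Tek fell in iG+P, from 1927 and 4014 normalized counts to 585 and 933 (log2 fold change -1.91, SE 0.39, limma adjusted p = 0.000882), and in iAtoh1, from 2740 and 4484 to 1001 and 1465 (-1.53, adjusted p = 0.00858). The smallest differences were those of iG+A (-0.30, adjusted p = 0.575), where controls of 8313 and 5724 stood against 5545 and 5687, of iPou4f3 (-0.66) and of iGPA (-0.80, adjusted p = 0.106). Tek is the sister receptor of Tie1, which in iG+A was 2.71-fold higher, while Tek was 1.23-fold lower without passing the test.

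iG+P was the line with most endothelial genes past the threshold downwards. Pecam1, Tek and Sox17 fell (3 of 10, against 5.36% of all genes downwards, and 0 rose against 5.16%). At an adjusted p under 0.05 alone 7 of the 10 were lower, against 33.8% of all genes in either direction, and 8 of the 10 had both Dox libraries below both controls, against 34.1% of all genes. Sox17 was at 436 and 374 normalized counts without Dox and at 78.4 and 50.9 with it (log2 fold change -2.66, SE 0.47, limma adjusted p = 0.000247). Cdh5 (807 and 1184 against 396 and 430), Tie1 (724 and 1081 against 370 and 444), Eng (1378 and 1520 against 774 and 815) and Kdr (8055 and 7678 against 4053 and 4124) were between 1.82-fold and 2.36-fold lower. The exceptions were Etv2 and Flt1, whose log2 differences were 0.60 and 0.14, and Emcn, which had 10.8 to 37.0 normalized counts in these 4 libraries and differed by -0.94 (adjusted p = 0.288). Without the second No Dox replicate of iG+P, Tek no longer passed (-1.38), and without the first Cdh5 passed as well.

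In iAtoh1, Pecam1 and Tek fell (2 of 10, against 2.52% of all genes downwards), none rose (against 2.89%), and the same 2 passed at an adjusted p under 0.05 alone, against 23.1% of all genes. These 2 calls depend on single libraries, since the fold threshold was then not reached. Without the first Dox replicate of iAtoh1 Pecam1 was at -1.28 and Tek at -1.26, and without the second No Dox replicate at -1.32 and -1.18. For both genes the 2 Dox libraries lay below both controls. In iP+A, Pecam1 fell (1 of 10, against 2.58% downwards), none rose (against 4.70%), and 4 genes passed without the fold threshold, against 24.9% of all genes: Kdr was higher (0.68, adjusted p = 0.00604), and Pecam1, Tek and Flt1 were lower (-1.18 for Flt1, adjusted p = 0.0102). Flt1 in iP+A was at 1325 and 1142 normalized counts without Dox and at 488 and 600 with it, the opposite of its direction in iGPA. Without the second No Dox replicate of iP+A, Tek passed besides Pecam1.

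In iGfi1 no endothelial gene passed both thresholds, against 2.15% of all genes upwards and 2.67% downwards. Sox17 came nearest, with 334 and 316 normalized counts without Dox and 126 and 104 with it (log2 fold change -1.49, SE 0.47, limma adjusted p = 0.0261), and Tek (-1.38), Pecam1 (-1.02) and Kdr (-0.50) were also lower at an adjusted p under 0.05 (4 of 10, against 26.5% of all genes). The same 4 genes had an unadjusted p under 0.05, as did 38.2% of all genes. In iPou4f3 none passed by limma, with or without the fold threshold, against 1.47% of all genes upwards, 0.606% downwards and 4.72% at an adjusted p under 0.05 alone, and 1 gene had an unadjusted p under 0.05, against 18.2% of all genes. Nevertheless 9 of its 10 genes had both Dox libraries below both controls, where 26.3% of all genes did, and the median difference was -0.61. The exception was Kdr, with 6025 and 6963 against 6513 and 6612.

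**Figure D2:**
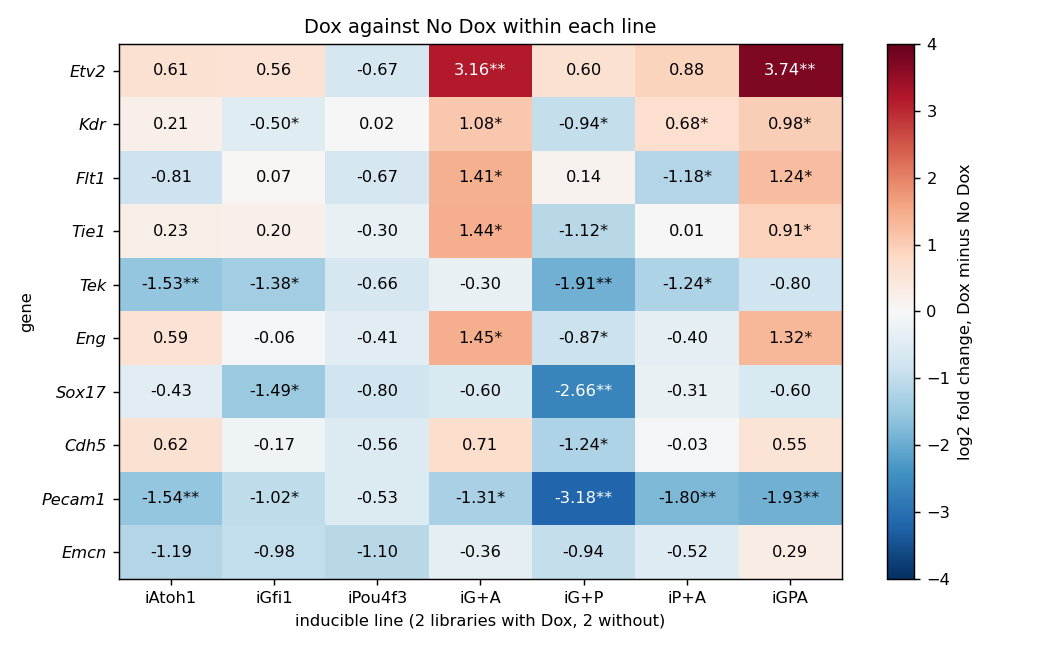
Log2 fold changes of the 10 genes (rows) in the 7 lines (columns), Dox minus No Dox, 2 libraries in each group. A double asterisk marks an adjusted p under 0.05 and an absolute log2 fold change of 1.5 or more, and a single asterisk an adjusted p under 0.05 alone; the red cells of iG+A and iGPA and the blue row of Pecam1 are the main features.

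The lines differ by single factors, so the effect of a factor on the Dox response could be tested directly. For each factor the difference of Dox effects was averaged over 3 pairs of lines of which 1 carries that factor in addition, and sorting is common to both sides of each difference. The lines of a pair can also differ in the level of a shared factor. Pou4f3 with Dox was at 4694 to 5381 normalized counts in iPou4f3, 10868 to 12878 in iP+A, 13037 to 15115 in iGPA and 17590 to 19883 in iG+P, and the part of this in the results was not tested. Adding Gfi1 raised the Dox effect of Etv2 by 2.23 (95% interval 1.56 to 2.89) and of Flt1 by 1.82 (1.28 to 2.36) on the log2 scale. These were 2 of the 10 genes, against 4.84% of all genes upwards, and none passed downwards, against 3.07%. With no fold threshold Eng (0.71, limma adjusted p = 0.0239) and Pecam1 (-0.85, adjusted p = 0.00377) passed as well, 4 of 10 against 34.0% of all genes. The average of Pecam1 came from 1 pair, since it was -2.65 for iG+P minus iPou4f3, -0.12 (95% interval -0.88 to 0.63) for iGPA minus iP+A and 0.22 (-0.53 to 0.98) for iG+A minus iAtoh1. That of Eng was -0.45, 1.72 and 0.85 in the same order, whereas Etv2 (1.27, 2.86 and 2.55) and Flt1 (0.81, 2.43 and 2.22) lay above 0 in each. Of 7 mural and smooth muscle genes 3 passed downwards with Gfi1 added (median -1.43), and their part was not tested.

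With Atoh1 added, Etv2 was the 1 gene past both thresholds (2.43, 95% interval 1.77 to 3.09, limma adjusted p = 1.57e-05), against 3.64% of all genes upwards, and none passed downwards, against 1.49%. With no fold threshold 6 of the 10 were higher, against 30.6% of all genes in either direction: Kdr (1.38, 1.10 to 1.67), Eng (1.23, 0.75 to 1.72), Tie1 (1.19, 0.60 to 1.79), Sox17 (1.15, 0.33 to 1.96), Cdh5 (1.07, 0.50 to 1.63) and Etv2. The 3 pairs behind these averages were uneven, and each of the 6 genes had its lowest value for iP+A minus iPou4f3, the pair without Gfi1. In the order iG+A minus iGfi1, iGPA minus iG+P and iP+A minus iPou4f3, Etv2 was at 2.59, 3.14 and 1.55, Kdr at 1.57, 1.92 and 0.66, Eng at 1.51, 2.18 and 0.0072, Tie1 at 1.24, 2.04 and 0.31, Sox17 at 0.89, 2.06 and 0.49, and Cdh5 at 0.88, 1.79 and 0.53. These single pairs were not tested. Sox17 had a log2 fold change below 0 in each of the 7 lines, so its value stands for a less negative Dox effect. Between Dox libraries alone the Sox17 difference was 0.33. The median over the 10 genes was 1.11, beside 0.01 over all genes tested. Pecam1 was the 1 gene below 0, with a difference of -0.10 and an interval from -0.54 to 0.34, and was at 0.071 without the first Dox replicate of iGPA. This average came from pairs of opposite sign, at -0.29, 1.26 and -1.27 in the same order. Markers of other cells moved in this contrast too. Of 7 cardiac genes 4 passed upwards (median 1.70), of 10 endoderm genes 3 passed upwards (median 0.68), and of 12 blood genes 8 passed downwards (median -1.99), and their part in the endothelial values was not tested.

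Kdr and Flt1 are both VEGF receptors, and their values can be set side by side. For Kdr the difference was 1.38 with Atoh1 added and 0.07 (95% interval -0.22 to 0.35) with Gfi1 added, the latter from pairs that went both ways (0.86, 0.30 and -0.96). For Flt1 it was 1.82 with Gfi1 added and 0.64 (0.10 to 1.18, limma adjusted p = 0.0692) with Atoh1 added, where the pairs also went both ways (1.33, 1.10 and -0.52). The contrast between these receptors was not itself tested.

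Adding Pou4f3 gave no endothelial gene past both thresholds by limma, against 2.25% of all genes upwards and 0.469% downwards, and 4 had an unadjusted p under 0.05, against 24.0%. Pecam1 alone passed with no fold threshold (1 of 10, against 11.0% of all genes), with a difference of -1.01 (95% interval -1.45 to -0.58, adjusted p = 0.00337), made up of -2.16 for iG+P minus iGfi1, -0.61 for iGPA minus iG+A and -0.27 for iP+A minus iAtoh1. The differences of Tie1 (-0.69), Eng (-0.64) and Cdh5 (-0.63) lay on the same side with adjusted p values of 0.134, 0.0851 and 0.157, and that of Etv2 was 0.30 (-0.37 to 0.96).

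**Figure D3:**
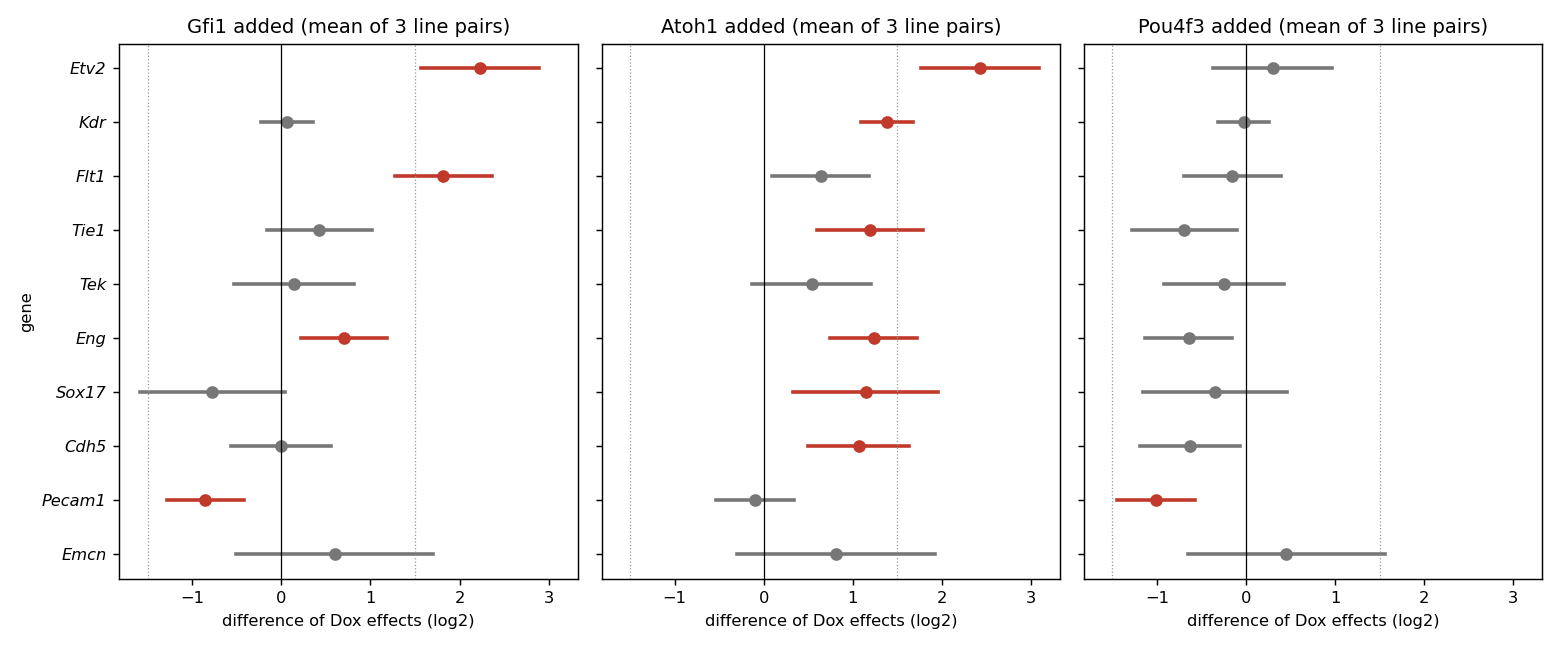
Difference of Dox effects on the log2 scale when Gfi1, Atoh1 or Pou4f3 is added, each the mean of 3 line pairs. Points are estimates, bars 95% intervals and dotted lines mark 1.5 in either direction; red marks an adjusted p under 0.05, seen for Etv2 with Gfi1 (2.23) and with Atoh1 (2.43) but not with Pou4f3 (0.30).

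4 further differences were chosen after these values had been seen. iG+A exceeded iAtoh1 in the Dox effect of Etv2 by 2.55 (95% interval 1.40 to 3.70) and of Flt1 by 2.22 (1.28 to 3.16), 2 of 10 past both thresholds against 6.87% of all genes in either direction. iGPA exceeded iP+A in Etv2 (2.86, 1.72 to 4.01), Flt1 (2.43, 1.49 to 3.36) and Eng (1.72, 0.88 to 2.56), 3 of 10 against 7.60%, of which Eng did not pass without the second Dox replicate of iGPA (1.41) or between Dox libraries alone (1.09). iG+P against iPou4f3, the pair with Gfi1 added and no Atoh1, gave 1 of 10 against 7.63%, namely Pecam1 (-2.65, -3.41 to -1.89), and Kdr (-0.96) passed without the fold threshold. For iG+A minus iAtoh1 the Kdr difference was 0.86 (limma adjusted p = 0.0186), and for iGPA minus iP+A it was 0.30 (-0.20 to 0.79, adjusted p = 0.428).

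Whether Gfi1 acted differently in the presence of Atoh1 was tested as (iGPA minus iP+A) minus (iG+P minus iPou4f3). All 10 endothelial genes had a positive value (Emcn, at 0.65, was at -0.15 without the second Dox replicate of iGPA), as did 52.2% of all genes, with a median of 1.61 beside 0.02 over all genes, and 6 had an unadjusted p under 0.05, against 15.0% of all genes. Pecam1 alone passed (2.53, 95% interval 1.46 to 3.60, limma adjusted p = 0.0185), 1 of 10 against 0.980% of all genes. With the replicate number of each line as a block, 3 passed: Pecam1, Eng (2.17, adjusted p = 0.0116) and Tek (1.70, adjusted p = 0.0161). Pecam1 did not pass without the first No Dox (2.50, adjusted p = 0.0508) or the second Dox (2.41, adjusted p = 0.0507) replicate of iPou4f3, the first Dox replicate of iP+A (2.27, adjusted p = 0.0622) or the second No Dox replicate of iGPA (2.43, adjusted p = 0.0572). Without the first Dox replicate of iGPA, Pecam1, Tie1 and Eng passed. The Etv2 value was 1.60 (-0.03 to 3.22, adjusted p = 0.343), so its higher level with both Gfi1 and Atoh1 was not shown to exceed the sum of their log2 effects in the presence of Pou4f3.

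Promoter sequence is shown for genes that moved together in iG+A and iGPA (Flt1, Eng, Kdr) and for Tek, which did not. Each is the 250 bases before the RefSeq start, read on the gene's strand, found once in NCBIM37, at chr5:148537588-148537837 for Flt1 (minus strand), chr2:32501865-32502114 for Eng (plus), chr5:76374484-76374730 for Kdr (minus, cut to 247 bases before the annotated first exon) and chr4:94405730-94405979 for Tek (plus). None of the bases shown lies in an annotated exon. Capitals mark AGGAAG or its reverse complement CTTCCT, letters of the kind ETS factors such as ETV2 bind.
Flt1 promoter: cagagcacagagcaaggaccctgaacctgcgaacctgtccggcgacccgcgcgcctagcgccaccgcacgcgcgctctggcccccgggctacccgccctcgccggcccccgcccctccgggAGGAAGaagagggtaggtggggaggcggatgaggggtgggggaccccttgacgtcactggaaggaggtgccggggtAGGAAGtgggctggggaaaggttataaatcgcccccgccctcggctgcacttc
Eng promoter: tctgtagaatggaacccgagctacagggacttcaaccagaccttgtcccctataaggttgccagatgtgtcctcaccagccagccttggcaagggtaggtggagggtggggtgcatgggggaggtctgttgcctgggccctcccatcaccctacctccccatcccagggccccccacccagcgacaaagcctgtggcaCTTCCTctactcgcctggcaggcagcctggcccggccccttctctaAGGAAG
Kdr promoter: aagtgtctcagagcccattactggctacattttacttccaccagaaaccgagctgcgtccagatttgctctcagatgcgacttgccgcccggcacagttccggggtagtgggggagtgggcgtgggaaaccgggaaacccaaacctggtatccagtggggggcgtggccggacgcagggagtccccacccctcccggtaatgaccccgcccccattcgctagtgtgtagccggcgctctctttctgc
Tek promoter: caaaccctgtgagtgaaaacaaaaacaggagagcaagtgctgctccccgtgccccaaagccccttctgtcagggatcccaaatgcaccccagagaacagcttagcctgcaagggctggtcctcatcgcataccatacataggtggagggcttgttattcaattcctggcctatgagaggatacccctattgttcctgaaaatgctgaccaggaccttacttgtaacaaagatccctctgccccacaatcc

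Flt1 holds these letters 129 and 53 bases before its start and Eng 52 and 6 bases before its start, and neither Kdr nor Tek holds them in this window. Of the 7 members with a promoter in the RefSeq table (build GRCm38.p6), which are all but Pecam1, Cdh5 and Sox17, 5 hold AGGAAG on either strand, as do 29.5% of the 32851 promoters of the table. Of these 5, the windows of Etv2 (250 of 250 bases), Tie1 (212) and Emcn (11) overlap exons annotated in NCBIM37 and are not shown. Emcn, which passed in neither iG+A nor iGPA, holds the letters 174 and 93 bases before its start, outside those 11 bases. CAGCTG, an E-box, is in 0 of the 7 and in 13.0% of all promoters, AATCAC, a core of Gfi1 sites, in 0 and 9.14%, and ATTAAT, found in POU sites, in 0 and 4.39%. These are matches of letters and not measured binding.

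The 10 genes did not vary as a unit. Cdh5 and Tie1 followed each other most closely, with Pearson's r of 0.976 over the 14 No Dox and 0.975 over the 14 Dox libraries (log2 values). Each set holds 7 lines in 2 clones, so the points share lines, and the values describe these libraries. Tie1 and Emcn (0.776 without and 0.915 with Dox) and Cdh5 and Emcn (0.796 and 0.857) came close. Kdr was hardly related to Cdh5 without Dox (-0.03) but was with it (0.780), and the same held for Eng with Cdh5 (-0.21 and 0.896) and Eng with Tie1 (-0.20 and 0.900). Across all 28 libraries, Tie1 (0.888) and Cdh5 (0.880) were nearest to the mean profile of the other 9 genes, and Sox17 (0.211) and Pecam1 (0.262) farthest from it.

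**Figure D4:**
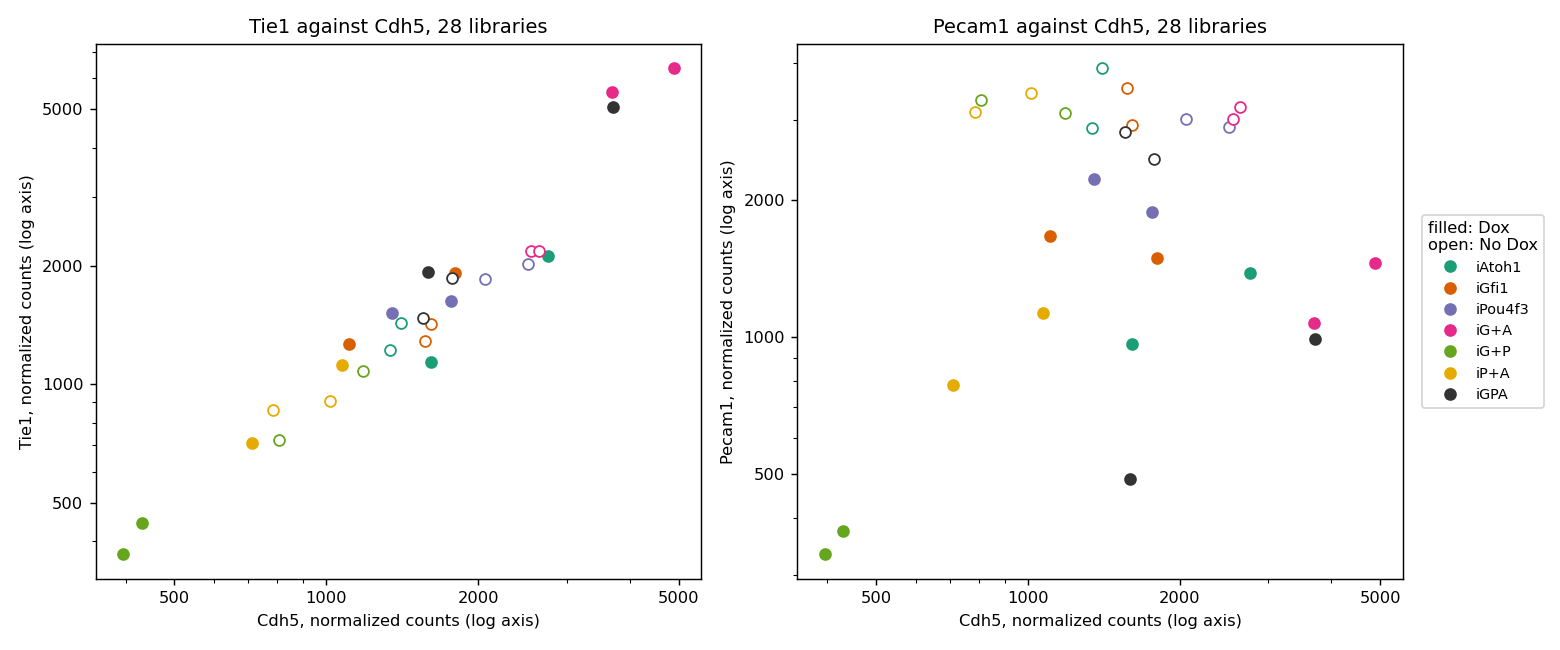
Tie1 (left) and Pecam1 (right) against Cdh5 in 28 libraries, in normalized counts on log axes, with colours for lines, filled points for Dox and open points for No Dox. Tie1 and Cdh5 lie along a common diagonal with and without Dox, whereas all Dox points of Pecam1 lie below its No Dox points.

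Among genes outside the 10, those closest to their mean standardized profile over 28 libraries were Arap3 (Pearson's r = 0.949), She (0.946), Sh3tc1 (0.945), Esam (0.921), Thsd1 (0.921), Arhgap31 (0.911), Cd93 (0.910) and Rasip1 (0.888). Esam, Cd93 and Rasip1 are known endothelial genes and were also on the lists below. The listed order shows likeness of profile over libraries of the same 7 lines and nothing more.

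Other genes of the endothelial programme were read from 5 lists of 58 genes, also chosen with earlier results of these data known. All 58 passed the filter. Of 14 transcription factors 5 rose in iG+A and in iGPA and none fell, where 7.35% and 8.65% of all genes rose, namely Sox18, Foxc2, Lmo2, Nr2f2 and Sox7. Sox18 and Sox7 belong to the same SOXF group as Sox17, and their log2 fold changes were 2.76 and 2.24 in iG+A and 2.91 and 1.69 in iGPA, while Sox17 itself was at -0.60 in both. Nr2f2, a factor of venous identity, rose in iAtoh1 too (1.67). Lmo2, a partner of the blood and endothelial factor TAL1, rose in all 4 lines with Gfi1, by 1.88 in iGfi1, 2.32 in iG+A, 1.97 in iGPA and 2.27 in iG+P, and so did Foxc2 (2.11, 2.41, 2.40 and 2.76). Erg, the ETS factor of established endothelium, fell in iG+P (-1.97).

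Of 6 arterial and Notch genes 3 rose in iG+A, 3 in iGPA, 2 in iP+A (against 4.70% of all genes) and 1 in iAtoh1 (2.89%), and 1 fell in iG+P (5.36%). The Notch ligand Dll4 rose in the 4 lines with Atoh1, by 2.47 in iAtoh1, 2.84 in iP+A, 3.06 in iG+A and 3.29 in iGPA. Hey1, a Notch target, rose in iG+A (3.09), iP+A (1.98) and iGPA (2.74), and the gap junction gene Gja4 in iG+A (3.53, from 176 ± 11.9 to 2073 ± 493 normalized counts, SD, n = 2) and iGPA (2.79). Efnb2 and Gja5, also arterial, passed in no line, with values of 0.21 and 0.13 in iG+A. Notch ligands and HEY factors also act in neural and sensory cells.

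Among the 13 other receptors 4 rose and 2 fell in iG+A (against 7.35% and 4.95% of all genes), and 2 rose and 2 fell in iGPA (against 8.65% and 5.31%). Flt4, the VEGF receptor of lymphatic endothelium, rose from 980 ± 164 to 6378 ± 1339 in iG+A (log2 fold change 2.69) and from 822 ± 23.0 to 4358 ± 1914 in iGPA (2.33). The co-receptor Nrp1 fell in all 4 lines with Gfi1, between -1.85 in iGfi1 and -2.70 in iGPA. The guidance receptors Unc5b (-1.77 in iGfi1, -1.87 in iG+P) and Robo4 (-1.59 in iG+A, -1.57 in iGPA) fell in 2 lines each. In iG+P 5 of the 13 receptors fell (against 5.36%) and none rose (against 5.16%).

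Of 15 junction and surface genes 7 fell in iG+P, against 5.36% of all genes, none rose and the median was -1.29. Adgrf5 (-3.34) and Adgrl4 (-3.10), adhesion G protein-coupled receptors of vessels, moved most, and Lyve1, a hyaluronan receptor of lymphatic and early endothelium, fell there too (-2.44). In iG+A 1 rose and 3 fell, and in iGPA 2 rose and 2 fell, with medians of -0.13 and 0.02 and the shares of all genes given for the receptors, which hold for the ligands as well. Of the 10 ligands 3 rose in iG+A, and 1 rose and 1 fell in iGPA. Apln rose in iG+A (1.55) and iGPA (1.74), and Vegfc fell in iG+P (-2.43) and iGPA (-1.69). Angpt2 held about 119 normalized counts in both iG+A controls and was listed at 0 in all 14 Dox libraries. It passed the filter only through those controls, so it is not counted as having fallen and no fold is given for it. In iPou4f3 1 of the 58 genes passed, against 2.08% of all genes in either direction, which was Lyve1 (-2.27).

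**Figure D5:**
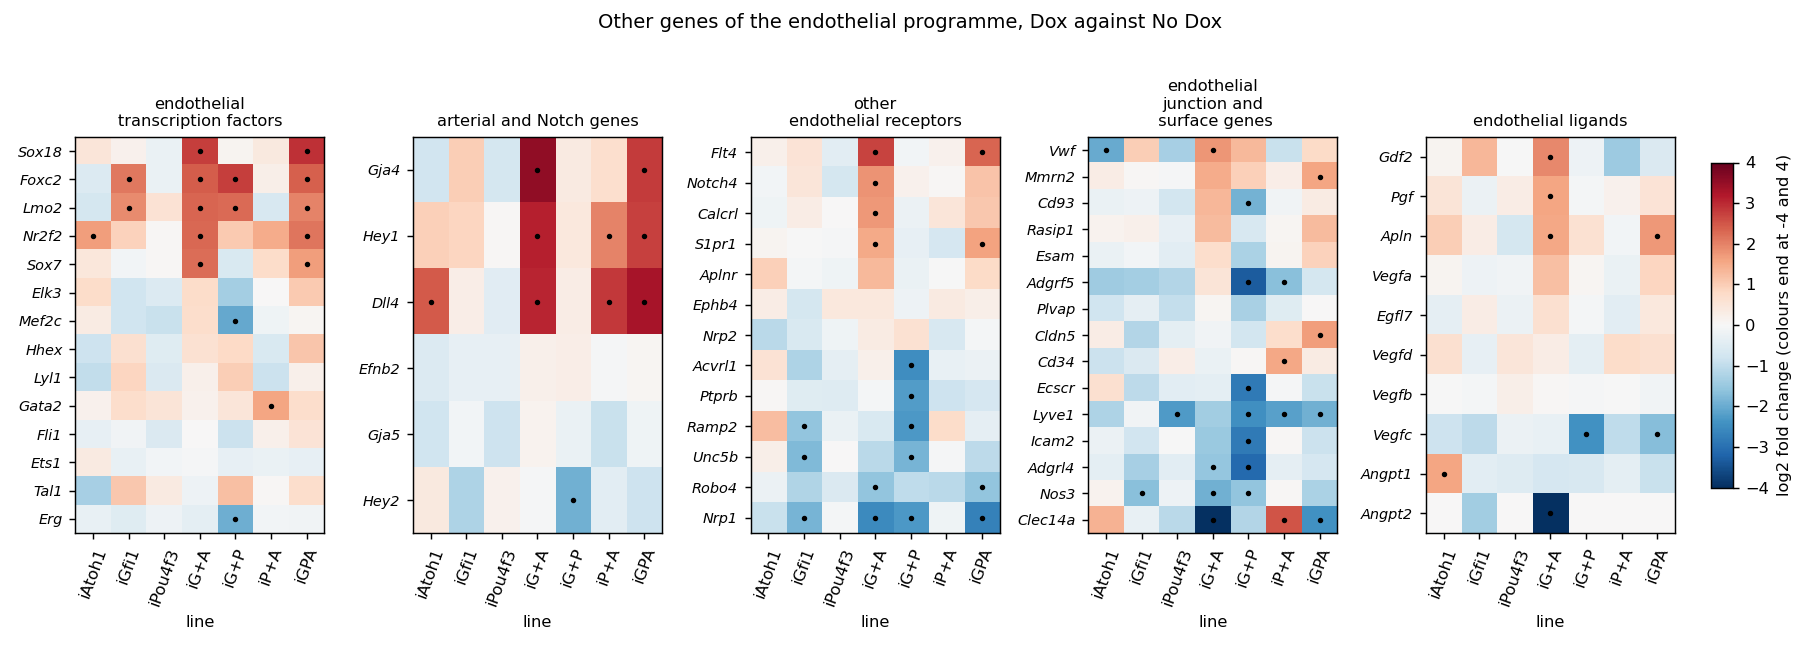
Log2 fold changes (Dox minus No Dox, colour scale from -4 to 4) of 58 further endothelial genes in 5 lists, by line. Black dots mark genes past both thresholds; 5 of 14 transcription factors and 3 of 6 arterial and Notch genes carry a dot in red in iG+A and in iGPA, and 5 of 13 receptors and 7 of 15 junction genes a dot in blue in iG+P.

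Markers of other cell types of EBs moved in the same libraries, and their part in the results above was not tested. The shares of all genes that fell were 2.52% in iAtoh1, 2.58% in iP+A, 4.95% in iG+A, 5.31% in iGPA, 5.36% in iG+P, 2.67% in iGfi1 and 0.606% in iPou4f3, and the shares that rose were 2.89% in iAtoh1, 4.70% in iP+A, 7.35% in iG+A, 8.65% in iGPA, 5.16% in iG+P and 2.15% in iGfi1. Of 12 blood genes 9 fell in iAtoh1, 7 in iP+A, 7 in iG+A and 6 in iGPA, and the summed level of the list in iG+A went from 512740 and 397350 normalized counts to 46962 and 56087. In iG+P 2 fell, in iGfi1 1 rose and none fell, and in iPou4f3 none fell. Over all lines the sum of the list ran from 71408 to 512740 without and from 13403 to 382390 with Dox. The embryonic globins Hbb-bh1 (-3.44 in iG+A, -4.43 in iGPA) and Hba-x (-3.36 and -3.13) led this sum. Of 7 mural and smooth muscle genes 5 fell in iGPA, 4 in iG+P, 2 in iG+A, 2 in iGfi1 and 1 in iP+A, and Acta2, a smooth muscle actin, was at -3.84 and Pdgfrb, a pericyte receptor, at -2.27 in iGPA. The sum of this list was 3585 and 3684 in iG+P Dox against 21959 and 32956 in its controls, and over all lines it ran from 20245 to 81747 without and from 3585 to 34079 with Dox.

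Of 8 early mesoderm genes 3 fell in iG+P, 3 in iGPA, 1 in iG+A and 1 in iGfi1, and 1 rose in iG+A. These included Hand1 (-3.49 in iG+A, -3.55 in iGPA, -3.56 in iG+P, -2.51 in iGfi1) and Pdgfra (-1.51 in iG+P, -1.96 in iGPA). Yet 5 of the 8 had a positive value in iG+P (median of the list 0.46), in iGPA (0.61) and in iG+A (0.09). In iGfi1 4 of the 8 had a positive value (0.35). Endoderm genes, whose list holds Sox7 as well, had 2 falling and 2 rising in iG+A, 2 falling and 1 rising in iGPA, 2 falling in iG+P and in iAtoh1 and 1 in iGfi1, iPou4f3 and iP+A each, and Gata4 (-1.20) and Gata6 (-1.13) in iG+P did not reach the fold threshold. Of 7 cardiac genes 2 rose in iAtoh1 (median of the list 1.41), 1 in iG+A, 1 in iGPA and 1 in iG+P, where 3 fell, and 1 fell in iGfi1. Actc1 rose in iG+A (3.12) and iGPA (3.20), and Tnnt2 fell in iG+P (-1.98). The median of the cardiac list was 0.02 in iG+A and 0.07 in iGPA, with 4 of 7 genes positive in each, and -1.54 in iG+P. Of 8 pluripotency genes 5 fell in iP+A, 4 in iG+A, 4 in iGPA and 2 in iG+P, while Pou5f1 and Klf4 passed in no line. Summed levels without and with Dox ran from 20847 to 60097 and 5576 to 59252 for early mesoderm, from 6102 to 12019 and 3799 to 13430 for endoderm, from 1393 to 6821 and 1089 to 9186 for cardiac muscle, and from 5304 to 26888 and 2796 to 12659 for pluripotency genes. Hand1 held much of the early mesoderm sum, with 15371 to 47582 normalized counts without and 1287 to 47874 with Dox. Of all these markers, Ptprc, Afp and Cer1 alone were at 0 in any library.

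The induced factors matched the labels of all 28 libraries. With Dox, Atoh1 was at 12816 to 21242 normalized counts in the lines that carry it and at 14.3 to 32.5 in the others, Gfi1 at 8119 to 12487 against 49.7 to 113, and Pou4f3 at 4694 to 19883 against 27.7 to 101. Without Dox the carriers held at most 120, 119 and 72.6. Normalized counts summed to between 36.8 M and 40.4 M per library, 17628 to 18074 genes were above 0, and the depth read from the steps of low values was 30.3 M to 48.0 M. Counting error weighs most on Emcn, whose libraries held between 10.8 and 241 normalized counts.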

How the data were processed

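RNA-seq was measured in 28 libraries (7 lines, Dox or No Dox, 2 clones each). Per the study's methods, the authors removed adapters (cutadapt), used Kallisto on UCSC knownGene transcripts (mm9), collapsed to genes (tximport) and normalized in DESeq2. The deposited values are log2(normalized count + 1). Gene names came from RefSeq (19314 of 19421 matched), positions and lengths from GENCODE M1 (NCBIM37). Of values up to 20, 72.4% to 79.4% lay within 0.05 of whole multiples of a library's step, so whole reads were not recovered and no count test was run. A 0 can be a failed Kallisto estimate.

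Genes reaching 10 normalized counts in 2 libraries were kept (16837). The 14 groups entered 1 limma 3.58.1 fit in R 4.3.3 (trend, 14 residual degrees of freedom, Benjamini-Hochberg within a contrast), with the study's thresholds (adjusted p under 0.05, absolute log2 fold change from 1.5). Scripts were tested on simulated data. The members and lists were chosen with earlier results of these data known. Also named were, per pathway list, up to 3 genes of largest mean Dox change among those past the threshold in a line, the 2 most abundant of each other list, and the 8 of most similar profile. Sox7, Sox18, Flt4, Erg, Efnb2 and Gja5, and Ptprc, Afp and Cer1, were named after their values were seen.

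Deviations of equally numbered Dox and No Dox libraries correlated by 0.103 to 0.246 in all 7 lines, and the series record ties replicates to clones, though nothing states that equal numbers mean the same clone. The reported values come from the fit without a replicate block, and the blocked fit is an alternative. Alternatives were the replicate block, other pseudocounts, filters and scalings, no trend, a fold threshold of 1, a pooled control, single-line fits, Dox libraries alone and left-out libraries.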

Additional observations from a re-analysis of the deposited data

Results flagged for a closer look

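The differences of Dox effects between lines that passed an adjusted p under 0.05 (limma) mark where an endothelial gene responded differently in lines that differ by a factor. With Gfi1 added these were Etv2 (2.23 on the log2 scale), Flt1 (1.82), Eng (0.71) and Pecam1 (-0.85). Pecam1 had 1 pair of lines at -2.65 and the other 2 at -0.12 and 0.22, and the pairs of Eng were at -0.45, 1.72 and 0.85. With Atoh1 added the differences that passed were Etv2 (2.43), Kdr (1.38), Eng (1.23), Tie1 (1.19), Sox17 (1.15) and Cdh5 (1.07), and with Pou4f3 added Pecam1 (-1.01). For iP+A minus iPou4f3, a pair behind the Atoh1 averages, Eng was at 0.0072 and Tie1 at 0.31. Sox17 had a log2 fold change below 0 in each of the 7 lines, and its Atoh1 difference between Dox libraries alone was 0.33.

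Among the differences chosen after the values had been seen, iG+A minus iAtoh1 gave Etv2 (2.55), Flt1 (2.22) and Kdr (0.86). iGPA minus iP+A gave Etv2 (2.86), Flt1 (2.43) and Eng (1.72), and iG+P minus iPou4f3 gave Pecam1 (-2.65) and Kdr (-0.96). The effect of Gfi1 with Atoh1 beyond that without it, in lines with Pou4f3, gave Pecam1 (2.53). These comparisons share libraries and are not independent of each other.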

How the results depend on the processing

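Single-gene values kept their direction and side of the threshold in 2721 alternative fits, moved past the threshold in 56 and lost it in 14. Most values were not past the threshold as reported, and only those that were could lose it. The 14 losses fell on Pecam1 and Tek in iAtoh1, Pecam1 in iGPA, Tek in iG+P, Eng in iGPA minus iP+A and Pecam1 for Gfi1 with Atoh1 beyond their sum. In 79 fits of 36 values the sign turned, none of them with an adjusted p under 0.05 as reported. In 1 of these the turned value had an adjusted p under 0.05: Emcn in iG+P minus iPou4f3 was 0.16 as reported and -2.23 (limma adjusted p = 0.0140) between the Dox libraries alone, where the untreated difference between the lines is not removed. With a fold threshold of 1 the number of endothelial genes past the threshold was 3 in iGfi1, 6 in iG+A, 4 in iGPA, 5 in iG+P, 3 in iP+A, 1 with Pou4f3 added and 6 with Atoh1 added. With all 14 No Dox libraries as 1 control it was 1 in iAtoh1, 2 in iG+A and 6 in iG+P, and with only the line's own 4 libraries 1 in iAtoh1. Between Dox libraries alone it was 6 for iG+A against iAtoh1, 5 for iG+P against iPou4f3 and 6 for Gfi1 with Atoh1 beyond their sum, where the replicate block gave 3. The block changed no other count. Of genes that differ between untreated lines 1 (Cdh5) was left with no filter and 1 without the trend, and Tie1 made 3 with the filter at 50 normalized counts and with rescaling by the 75th percentile. Leaving out single libraries gave 0 to 2 in iAtoh1, 0 to 0 in iGfi1 and iPou4f3, 1 to 4 in iG+A, 2 to 4 in iGPA, 2 to 4 in iG+P, 1 to 2 in iP+A, 2 to 2 with Gfi1, 0 to 0 with Pou4f3, 1 to 1 with Atoh1, 2 to 3 for iG+A minus iAtoh1, 2 to 4 for iGPA minus iP+A, 1 to 1 for iG+P minus iPou4f3, 0 to 3 for Gfi1 with Atoh1 beyond their sum and 0 to 3 between untreated lines. Except for fewer libraries, the causes were not tested. Rescaling moved no median of all genes by over 0.1. Depth limits Emcn.

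Of the other fits in which the sign turned, under quantile normalization the value was -0.053 for Tie1 in iP+A, -0.087 for Emcn in iGPA and 0.033 for Cdh5 with Gfi1 added. With rescaling by the 75th percentile the value was -0.015 for Tie1 in iP+A and 0.028 for Cdh5 with Gfi1 added. Against all untreated libraries the value was 0.69 for Sox17 in iAtoh1, 0.023 for Cdh5 in iPou4f3, 0.18 for Tie1 in iPou4f3, 0.15 for Tek in iG+A, 1.12 for Emcn in iG+A, -0.64 for Tie1 in iP+A and -0.046 for Emcn in iGPA. Between Dox libraries alone the value was 0.20 for Cdh5 with Gfi1 added, -0.00062 for Tek with Gfi1 added, -0.92 for Emcn with Pou4f3 added, -0.10 for Etv2 with Pou4f3 added and 0.084 for Sox17 in iGPA minus iP+A. Leaving out single libraries turned the sign of 30 values. In iAtoh1, Sox17 ran from -1.25 to 0.40 and Tie1 from -0.21 to 0.68. With Gfi1 added, Cdh5 ran from -0.21 to 0.20, Kdr from -0.0095 to 0.14 and Tek from -0.034 to 0.32. With Pou4f3 added, Kdr ran from -0.10 to 0.047 and Flt1 from -0.31 to 0.00045. For iG+A minus iAtoh1, Emcn ran from -0.17 to 1.83, Sox17 from -0.998 to 0.65, Pecam1 from -0.032 to 0.48 and Cdh5 from -0.29 to 0.48. In iGfi1, Tie1 ran from -0.094 to 0.50, Eng from -0.15 to 0.0197, Flt1 from -0.053 to 0.20 and Cdh5 from -0.52 to 0.18. In iPou4f3, Kdr ran from -0.085 to 0.12. For iG+P minus iPou4f3, Emcn ran from -0.41 to 0.73. In iG+A, Sox17 ran from -1.33 to 0.12. In iG+P, Flt1 ran from -0.28 to 0.57. In iP+A, Tie1 ran from -0.31 to 0.34, Cdh5 from -0.33 to 0.26 and Emcn from -1.15 to 0.12. For iGPA minus iP+A, Pecam1 ran from -0.64 to 0.39, Sox17 from -0.73 to 0.15, Cdh5 from -0.0298 to 1.19 and Tek from -0.047 to 0.94. In iGPA, Emcn ran from -0.51 to 1.09 and Cdh5 from -0.061 to 1.16. With Atoh1 added, Pecam1 ran from -0.27 to 0.071. For Gfi1 with Atoh1 beyond their sum, Emcn ran from -0.15 to 1.45.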
